A study of Mus musculus with 2 samples.

Results

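Expression of 9 genes of pyroptosis, necroptosis and caspase signaling, Gsdmd, Gsdme, Casp1, Casp8, Ripk1, Ripk3, Mlkl, Nlrp3 and Pycard, was examined in every cell class of mouse pancreatic tumors with and without insufficient irreversible electroporation (iIRE). The genes were chosen by name, as the rows of the count matrix that carry these symbols, and they are 9 of its 32285 genes. The tumors were orthotopic KPC tumors in C57BL/6 mice, grown from a KPC-derived line, listed as FC1199, whose alleles include Trp53 R172H/+ and Pdx1-Cre. The hosts of the subcutaneous model were male and 5 to 7 weeks old, while sex and age are not stated separately for the orthotopic hosts. Single cells of 1 control library (labelled Ctrl) and 1 iIRE library (labelled IRE) were profiled with 10x Genomics 5′ chemistry, the iIRE tumors 3 days after the procedure, in which needles deliver electric pulses that ablate part of the tumor. Both groups carried the same tumor line. The methods describe needle insertion without pulses for the controls, the results text calls them untreated, and the number of mice pooled in a library is not given.

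Pyroptosis and necroptosis are forms of lytic cell death. In pyroptosis, a sensor such as NLRP3 binds the adaptor ASC, encoded by Pycard, and the assembled inflammasome activates caspase-1, which cleaves gasdermin D into a fragment that opens pores in the plasma membrane and also matures interleukin-1β. Gasdermin E, encoded by Gsdme, is opened by apoptotic caspases instead. In necroptosis, RIPK1 engages RIPK3, which phosphorylates the pore-forming MLKL, and caspase-8 restrains this route while it starts extrinsic apoptosis. These steps run through protein binding, cleavage and phosphorylation, so RNA levels describe which parts a cell class holds and not whether a cell was dying.

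The files held 18538 barcodes with 247105192 UMIs for the control and 19433 barcodes with 222153118 UMIs for iIRE, and the libraries shared 458 barcode sequences, which were kept as separate cells. After filters and removal of likely doublets, 15274 control and 15991 iIRE cells with a median of 7946.5 and 6434 UMIs were left. Levels are given in CPM, the UMIs of a gene in a class of a library per 1e+06 UMIs of that class, with exact 95% Poisson intervals in square brackets. Shares are percentages of cells with at least 1 UMI. Each group is 1 library, so no test between groups could be made, and all intervals cover counting error only. Cells were clustered without the 9 genes and their pathway, and classes were named from marker lists. There were 6790 control and 6829 iIRE tumor-like cells in 8 clusters, 890 and 811 macrophage-like, 70 and 123 monocyte-like and 142 and 145 neutrophil-like cells. The smaller classes were dendritic-like (134 and 50), T/NK-like (58 and 23), osteoclast-like (152 and 245), fibroblast-like (71 and 80) and endothelial-like (20 and 18).

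Host clusters were required to be low in Cdkn2a, a transcript of the tumor line, and tumor-like clusters to have almost no UMIs of 4 Y-linked genes, which the host cells carried. The 8 host clusters had 90.3 to 195 CPM of these Y-linked genes, which their own rule did not use, and 6.63 to 58.4 CPM of Cdkn2a. The 8 tumor-like clusters had 673 to 1783 CPM of Cdkn2a and 0.0849 to 0.533 CPM of the Y-linked genes. Another 14 clusters, with 45.5% of the control and 47.9% of the iIRE cells, were set aside as mixed. All 14 had 701 CPM or more of Cdkn2a, and together they held Lyz2, the lysozyme gene of phagocytes, at 283 CPM in the control and 318 CPM in iIRE, against 4.97 and 3.19 CPM in tumor-like cells. The 2 largest mixed clusters were divided unevenly, with 1325 control and 5544 iIRE cells in the one and 3070 and 417 in the other. Neutrophil-like cells were shallow, with a median of 1324.5 and 1317 UMIs, against 20126 and 17646 UMIs in tumor-like cells. Cell classes therefore differed in depth, and shares of cells are also given after every cell was thinned to 2000 UMIs, which left 6678 and 6660 tumor-like and 848 and 778 macrophage-like cells, but only 11 and 13 neutrophil-like cells.

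Nlrp3, the sensor, had the widest range of the 9 genes across classes. It was highest in neutrophil-like cells, at 872 CPM [749.9 to 1008] in the control and 1101 CPM [964 to 1251] in iIRE. Monocyte-like cells had 324 CPM [268 to 388] and 248 CPM [212 to 289], macrophage-like cells 256 CPM [244 to 269] and 235 CPM [222 to 248], and dendritic-like cells 161 CPM [139 to 187] and 189 CPM [149 to 236]. The neutrophil-like level was 3.40 times that of macrophage-like cells in the control [2.90 to 3.97] and 4.69 times in iIRE [4.06 to 5.40], so that the neutrophil-like interval lay above all other classes in both libraries. Monocyte-like cells were above macrophage-like cells in the control by 1.26 times [1.04 to 1.52], while in iIRE these neighbors did not differ beyond counting error, at 1.06 times [0.893 to 1.25].

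Osteoclast-like cells, which like macrophages descend from the myeloid lineage, held far less Nlrp3, at 5.14 CPM [2.66 to 8.99] and 10.4 CPM [7.20 to 14.5]. The T/NK-like cells had 1 and 3 UMIs, fibroblast-like cells 3 and 0 UMIs (0 allows up to 2.71 CPM, taking 3 UMIs as the limit throughout) and endothelial-like cells 0 (up to 10.7 CPM) and 3 UMIs. The osteoclast-like level was 49.8 times below macrophage-like cells in the control and 22.6 times below in iIRE. Tumor-like cells had 16 and 20 UMIs of Nlrp3 in all, or 0.109 and 0.154 CPM, and 0.236% and 0.278% of these cells held a UMI against 60.1% and 59.4% of macrophage-like cells. As a scale for RNA of phagocytes, UMIs were set against those of Lyz2. C1qa, a complement gene of macrophages, had 414 and 475 UMIs per 1000 Lyz2 UMIs in tumor-like and 455 and 461 in macrophage-like cells. Nlrp3 had 22.01 and 48.4 UMIs per 1000 Lyz2 UMIs in tumor-like and 24.7 and 23.7 in macrophage-like cells, near the macrophage-like proportion in the control and above it in iIRE. Proportions differ between phagocytes, as neutrophil-like cells held 872 and 1101 CPM of Nlrp3 beside 1035 CPM of Lyz2 in each library. Whether the 16 and 20 UMIs of tumor-like cells came from these cells or from free RNA of other classes was not tested. Tumor-like clusters were required to have almost no Y-linked UMIs, and their low Nlrp3 applies to clusters chosen that way. The mixed clusters, which were set aside, held 460 and 499 UMIs of Nlrp3, or 39.4 per 1000 Lyz2 UMIs in each library. After thinning, 33.1% and 33.4% of macrophage-like cells and 0.0236% and 0.0361% of tumor-like cells held a UMI.

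Pycard, the adaptor, was highest in monocyte-like cells, at 379 CPM [318 to 447] in the control and 462 CPM [411 to 516] in iIRE. Macrophage-like cells had 244 CPM [232 to 256] and 255 CPM [241 to 269], T/NK-like cells 237 CPM [179 to 309] and 323 CPM [221 to 456], and dendritic-like cells 205 CPM [180 to 234] and 206 CPM [164 to 255]. The T/NK-like interval lay below that of monocyte-like cells in the control but overlapped it in iIRE, where a single T/NK-like cell held 40.6% of the UMIs. Osteoclast-like cells, low in Nlrp3, kept 125 CPM [111 to 140] and 154 CPM [141 to 168] of Pycard. Neutrophil-like cells stood apart from the other phagocytes in the opposite direction from Nlrp3, with 7 and 13 UMIs of Pycard, or 33.5 CPM [13.5 to 69.1] and 61.1 CPM [32.6 to 105]. The neutrophil-like level was 7.26 times below that of macrophage-like cells in the control and 4.17 times below in iIRE, and these intervals did not overlap in either library.

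Tumor-like cells had 0.889 CPM and 0.925 CPM of Pycard from 130 and 120 UMIs, 274 and 276 times below macrophage-like cells. A UMI was found in 1.81% and 1.70% of tumor-like cells. Per 1000 Lyz2 UMIs this was 179 and 291, against 23.4 and 25.8 in macrophage-like cells, above the macrophage-like proportion in both libraries. The source of these Pycard UMIs was not tested. The mixed clusters held 406 and 543 UMIs of Pycard, or 34.8 and 42.9 per 1000 Lyz2 UMIs. Fibroblast-like cells had 34.9 CPM [24.8 to 47.7] and 18.9 CPM [11.7 to 29.0], and endothelial-like cells 1 and 3 UMIs.

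The windows before the transcription starts of 4 of the genes are shown as examples of few and many CpG dinucleotides, the inflammasome sensor, adaptor and protease beside the necroptosis kinase Ripk1. They were chosen after their values were seen, and nothing is drawn from the contrast, since Casp8 was found in every class as Ripk1 was and its window holds 5. They are the 250 bases before a RefSeq start on GRCm38.p6, the mm10 genome of the counts, with each CpG dinucleotide in capitals.
Nlrp3 (chr11:59541319-59541568, plus strand): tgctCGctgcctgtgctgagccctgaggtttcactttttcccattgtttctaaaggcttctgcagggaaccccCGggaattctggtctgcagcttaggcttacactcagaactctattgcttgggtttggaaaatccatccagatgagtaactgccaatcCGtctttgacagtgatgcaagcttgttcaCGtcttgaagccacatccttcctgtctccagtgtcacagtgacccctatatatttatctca
Pycard (chr7:127993868-127994117, minus strand): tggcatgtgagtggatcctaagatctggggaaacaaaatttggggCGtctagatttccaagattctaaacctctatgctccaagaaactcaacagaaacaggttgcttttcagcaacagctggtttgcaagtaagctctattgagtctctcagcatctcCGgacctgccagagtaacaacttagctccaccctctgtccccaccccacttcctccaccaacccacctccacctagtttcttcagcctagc
Casp1 (chr9:5298267-5298516, plus strand): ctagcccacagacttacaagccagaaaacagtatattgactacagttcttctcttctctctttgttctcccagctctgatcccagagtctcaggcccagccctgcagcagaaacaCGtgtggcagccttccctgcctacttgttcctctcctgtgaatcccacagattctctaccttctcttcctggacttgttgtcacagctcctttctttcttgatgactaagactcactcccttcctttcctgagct
Ripk1 (chr13:34002113-34002362, plus strand): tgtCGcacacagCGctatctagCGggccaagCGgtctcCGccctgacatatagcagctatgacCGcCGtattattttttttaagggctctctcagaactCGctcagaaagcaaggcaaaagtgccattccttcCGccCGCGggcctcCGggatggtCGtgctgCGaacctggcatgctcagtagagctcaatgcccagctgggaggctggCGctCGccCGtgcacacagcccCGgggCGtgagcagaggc

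CpG dinucleotides numbered 4 in this window of Nlrp3, 2 in Pycard, 1 in Casp1 and 19 in Ripk1, where the median over 32851 RefSeq promoters was 6. The share of all promoters with fewer was 37.8% for Nlrp3, 18.8% for Pycard, 7.87% for Casp1 and 80.3% for Ripk1. Of the other genes with a RefSeq window, Gsdme had 15, Ripk3 8 and Casp8 and Mlkl 5 each, while a second start of Nlrp3 had 3 and one of Ripk1 had 32. Windows were found for 8 of the 9 genes, and Gsdmd had none. A motif of the PU.1 type, GAGGAAGT on either strand, was present only in Pycard, 44 bases before the start on the reverse strand, and in 2.44% of all promoters. An SP1-type motif, GGGGCGGGG, was present only in Gsdme, 126 bases before its start, and in 10.4% of all promoters. A motif match is a description of the letters, and no binding was measured.

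Casp1, the inflammasome protease, had its highest value in monocyte-like cells, at 54.9 CPM [33.5 to 84.8] in the control and 64.7 CPM [46.8 to 87.1] in iIRE. The ratio to macrophage-like cells was 1.62 [0.97 to 2.56] in the control, which included 1, and 1.90 [1.33 to 2.67] in iIRE. Macrophage-like cells had 33.9 CPM [29.6 to 38.7] and 33.97 CPM [29.1 to 39.4], and osteoclast-like cells had 36.9 CPM [29.5 to 45.5] and 29.96 CPM [24.3 to 36.5]. Unlike the sensor and the adaptor, Casp1 was clearly found in tumor-like cells, at 8.18 CPM [7.72 to 8.66] and 8.84 CPM [8.33 to 9.37] from 1197 and 1146 UMIs, 4.14 and 3.84 times below macrophage-like cells. T/NK-like cells had 47.4 CPM [23.7 to 84.8] and 30.3 CPM [6.25 to 88.5] from 11 and 3 UMIs, which overlapped the monocyte-like interval in both libraries. Dendritic-like cells had 29.6 and 29.4 CPM and fibroblast-like cells 9.85 and 4.51 CPM, while endothelial-like cells held 0 (up to 10.7 CPM) and 3 UMIs. Neutrophil-like cells held 2 and 1 UMIs of Casp1, 0.283 times [0.034 to 1.03] and 0.138 times [0.00349 to 0.781] the macrophage-like level. The class with the highest Nlrp3 thus had less Pycard than macrophage-like cells in both libraries, and less Casp1 beyond counting error only in iIRE.

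Gsdmd, the executioner cut by caspase-1, was highest in osteoclast-like cells, at 133 CPM [119 to 149] in the control and 121 CPM [109 to 133] in iIRE, and in monocyte-like cells, at 110 CPM [78.4 to 149.5] and 125 CPM [99.4 to 155]. The first was osteoclast-like in the control and monocyte-like in iIRE, and the intervals of these 2 classes overlapped in both libraries. Dendritic-like cells had 76.2 and 61.3 CPM, neutrophil-like cells 57.5 and 56.4 CPM from 12 UMIs each, and T/NK-like cells 47.4 and 70.7 CPM from 11 and 7 UMIs. Fibroblast-like cells had 39.4 and 34.3 CPM and endothelial-like cells 28.6 and 34.6 CPM. Macrophage-like cells had 56.8 CPM [51.2 to 62.9] and 53.1 CPM [47.0 to 59.7], 1.68 times [1.51 to 1.87] and 1.51 times [1.33 to 1.70] the tumor-like level of 33.8 CPM [32.9 to 34.8] and 35.2 CPM [34.2 to 36.2]. A UMI was found in 46.9% and 43.3% of tumor-like cells and in 31.6% and 27.7% of macrophage-like cells, but after thinning the shares were 6.69% and 6.78% of tumor-like and 10.6% and 10.3% of macrophage-like cells, in the order of the CPM.

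Gsdme, the executioner cut by apoptotic caspases, had the reverse pattern between these classes. Tumor-like cells had 42.2 CPM [41.2 to 43.3] in the control and 45.1 CPM [43.9 to 46.3] in iIRE, from 6177 and 5847 UMIs. Macrophage-like cells had 6.50 CPM [4.69 to 8.79] and 6.76 CPM [4.71 to 9.40], 6.49 and 6.67 times below. Fibroblast-like cells had 43.0 CPM [31.7 to 57.0] and 29.8 CPM [20.5 to 41.8], with a ratio to tumor-like cells of 1.02 [0.75 to 1.35] in the control and 0.661 [0.454 to 0.929] in iIRE. Neutrophil-like cells had 47.9 and 42.3 CPM, but from only 10 and 9 UMIs. The 12 tumor-like markers summed to 225 and 259 CPM in neutrophil-like, 68.1 and 65.8 CPM in macrophage-like and 4036 and 4465 CPM in tumor-like cells, and the part of tumor RNA in the Gsdme of neutrophil-like cells was not tested. Monocyte-like cells had 16.5 CPM in each library, osteoclast-like cells 13.7 and 10.7 CPM and dendritic-like cells 10.8 and 9.80 CPM, while T/NK-like cells held 1 and 2 UMIs and endothelial-like cells 0 (up to 10.7 CPM) and 1. The 7 other gasdermin genes that were listed (Gsdma, Gsdma2, Gsdma3, Gsdmc, Gsdmc2, Gsdmc3 and Gsdmc4) had 3 UMIs together in the tumor-like cells of each library and 1 in the macrophage-like cells of each.

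Casp8, the apical caspase of death receptors, was found in all 9 classes. Monocyte-like cells had 134.5 CPM [99.5 to 178] in the control and 105 CPM [82.0 to 133] in iIRE, osteoclast-like cells 99.5 CPM [87.1 to 113] and 92 CPM [81.9 to 103], and macrophage-like cells 80.8 CPM [74.0 to 88.1] and 87.6 CPM [79.8 to 96.1]. Tumor-like cells had 33.6 CPM [32.7 to 34.6] and 37.9 CPM [36.8 to 39.0], 2.40 and 2.31 times below macrophage-like cells. The monocyte-like and osteoclast-like intervals overlapped in both libraries. Endothelial-like cells had 71.6 and 80.7 CPM, T/NK-like cells 56.04 and 90.8 CPM, dendritic-like cells 55.6 and 53.9 CPM, neutrophil-like cells 38.3 and 56.4 CPM and fibroblast-like cells 34.02 and 21.7 CPM.

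Ripk1, the kinase at the branch between survival and death, had its highest level in endothelial-like cells, at 64.4 CPM [38.2 to 102] in the control and 75.0 CPM [39.9 to 128] in iIRE, from 18 and 13 UMIs. Macrophage-like cells had 39.3 CPM [34.6 to 44.5] and 43.2 CPM [37.8 to 49.3], which the endothelial-like interval overlapped in both libraries. Monocyte-like cells had 43.9 and 34.6 CPM, fibroblast-like cells 28.6 and 23.5 CPM, osteoclast-like cells 28.3 and 29.3 CPM and dendritic-like cells 26.9 and 22.1 CPM. Tumor-like cells had 19.7 CPM [19.0 to 20.4] and 17.6 CPM [16.8 to 18.3], below macrophage-like cells in both libraries. The T/NK-like cells held 5 and 2 UMIs and the neutrophil-like cells 4 and 3.

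Ripk3, the kinase that commits a cell to necroptosis, was highest in T/NK-like cells in both libraries, at 47.4 CPM [23.7 to 84.8] and 60.6 CPM [22.2 to 132] from 11 and 6 UMIs, with intervals that overlapped those of fibroblast-like cells. Fibroblast-like cells had 26.9 CPM [18.1 to 38.3] and 47.8 CPM [35.8 to 62.6], 1.84 times [1.24 to 2.63] and 3.09 times [2.30 to 4.05] the tumor-like level. Tumor-like cells had 14.6 CPM [14.0 to 15.2] and 15.5 CPM [14.8 to 16.2] and macrophage-like cells 19.4 CPM [16.1 to 23.1] and 17.4 CPM [14.0 to 21.4], with a ratio of 1.33 [1.10 to 1.59] in the control and 1.12 [0.897 to 1.39] in iIRE. Monocyte-like cells had 19.2 and 40.6 CPM from 7 and 27 UMIs, 0.993 times [0.391 to 2.11] the macrophage-like level in the control and 2.34 times [1.46 to 3.63] in iIRE. Endothelial-like cells had 14.3 and 17.3 CPM from 4 and 3 UMIs, dendritic-like cells 8.97 and 7.35 CPM from 10 and 3 UMIs, and neutrophil-like cells 1 and 0 UMIs (0 allows up to 14.1 CPM). Osteoclast-like cells were lower than macrophage-like cells, at 8.57 CPM [5.24 to 13.2] and 8.56 CPM [5.69 to 12.4].

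Mlkl, the pore former of necroptosis, was highest in endothelial-like cells, at 43.0 CPM [22.2 to 75.0] in the control and 63.4 CPM [31.7 to 114] in iIRE from 12 and 11 UMIs. Tumor-like cells had 11.99 CPM [11.4 to 12.6] and 12.6 CPM [12.01 to 13.2], and macrophage-like cells had 9.75 CPM [7.49 to 12.5] and 7.72 CPM [5.52 to 10.51]. The mixed clusters, with both tumor and host transcripts, held more Mlkl than either, at 21.7 CPM [20.3 to 23.2] and 23.9 CPM [22.4 to 25.5], and the part of their makeup in this was not tested. Fibroblast-like cells had 14.3 CPM [8.19 to 23.3] and 27.1 CPM [18.3 to 38.6], the second of these 2.15 times [1.44 to 3.08] the tumor-like level of its library. Osteoclast-like cells had 12.4 and 13.1 CPM, monocyte-like cells 10.98 and 15.04 CPM and dendritic-like cells 3.59 and 2.45 CPM, and T/NK-like cells held 2 and 0 UMIs (up to 30.3 CPM). Neutrophil-like cells had 0 UMIs in both libraries, which by the limit of 3 UMIs allows up to 14.4 and 14.1 CPM, or 2.11% and 2.07% of cells with a UMI. With each library taken alone, these limits lay above the tumor-like level. The neutrophil-like cells of both libraries together were not compared with it.

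**Figure D1:**
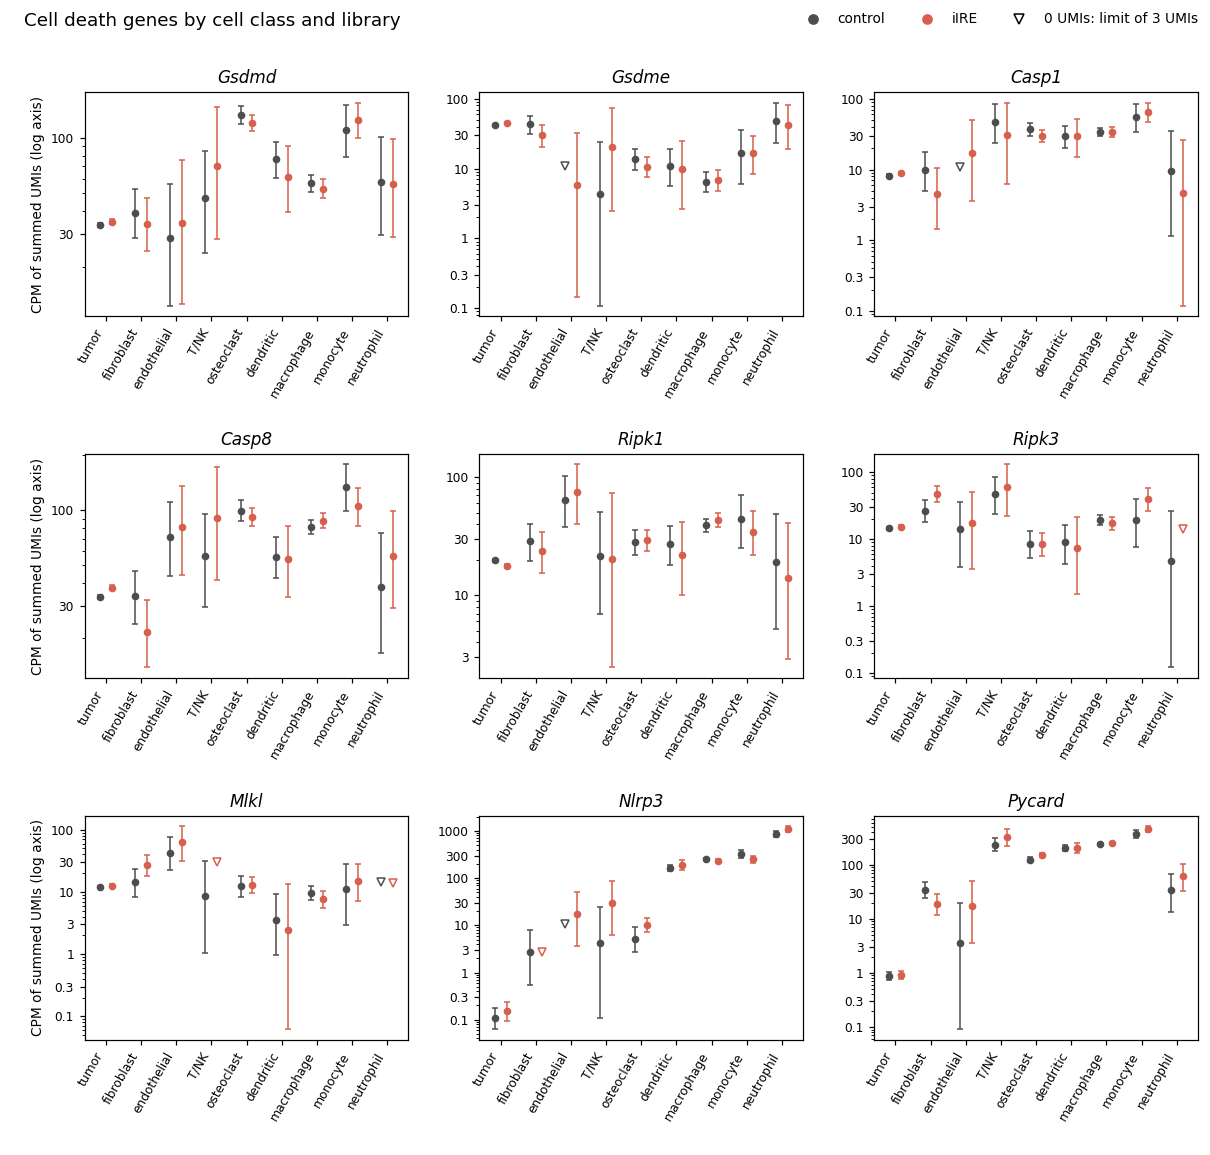
CPM of each of the 9 genes (vertical log axes) by cell class (horizontal), in the control (gray) and iIRE (red) library. Points are CPM of summed UMIs, bars are exact 95% counting intervals and open triangles mark 0 UMIs at the limit of 3 UMIs. Nlrp3 reached 872 and 1101 CPM in neutrophil-like cells and 0.109 and 0.154 CPM in tumor-like cells, while Gsdme was at 42.2 and 45.1 CPM in tumor-like and 6.50 and 6.76 CPM in macrophage-like cells.

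The genes with the most similar profile over 14 values, the 7 classes with at least 50 cells in each of 2 libraries (tumor-, macrophage-, monocyte-, neutrophil-, dendritic-, osteoclast- and fibroblast-like), were found by the Pearson correlation of log2(CPM + 1) among 11962 genes. These values share 2 libraries and the class differences, so the correlations are a description. For Nlrp3 they were Lilr4b (r = 0.997), Lilrb4a (0.989) and Fcgr3 (0.985). For Pycard they were Smpdl3a (0.983), Otulinl (0.977) and Ucp2 (0.961), and for Casp1 Lpxn (0.956), Ciao2a (0.951) and Ptpro (0.951). The profile of Gsdme was closest to Ppp2cb (0.937) and Snai1 (0.931). Gsdmd was closest to Trmt2b (0.921), Sin3b (0.903) and Pphln1 (0.901), and Casp8 to Rnpep (0.962), Apobec1 (0.933) and Rilpl2 (0.933). Ripk1 was closest to Cndp2 (0.952) and Cacna1d (0.922), Ripk3 to Svbp (0.962), Lgals3bp (0.946) and Dse (0.945), and Mlkl to Snx19 (0.962), Flna (0.958) and Hacd3 (0.953).

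Between the libraries, the genes were compared as the ratio of iIRE to control CPM within a class. The threshold was a 1.2-fold difference in CPM in either direction, for genes whose UMIs in the class reached 50 when the libraries were added. Among tumor-like cells 0 of the 8 genes with enough UMIs passed, where 15.8% of 14547 genes did so. The median log2 ratio of iIRE to control was 0.08 over the 8 genes and 0.01 over all genes. Casp8 had a log2 ratio of 0.17 [0.12 to 0.23] and was higher in iIRE in 7 of 8 tumor-like clusters. Ripk1 had −0.17 [−0.25 to −0.09] and was lower in iIRE in 6 of the 7 clusters with at least 50 UMIs. Ripk3 was higher in 6 of 7 and Mlkl in 5 of 6 such clusters, while Gsdmd and Gsdme were each higher in 4 and lower in 4. Some of these ratios were near 0, with Ripk3 at 0.00 [−0.21 to 0.21] in cluster 1 and Mlkl at 0.01 [−0.17 to 0.19] in dividing cells. The Ripk3 interval lay above 0 in mesenchymal cluster 13 and epithelial cluster 18, and every Mlkl interval in such clusters included 0. How many of all genes had such counts of clusters was not computed. Nlrp3 did not reach 50 UMIs, and its log2 ratio from 16 and 20 UMIs was 0.50 [−0.53 to 1.54]. Single clusters could differ more, with Gsdmd at 0.56 [0.25 to 0.87] in epithelial cluster 18 and Gsdme at 0.32 [0.16 to 0.49] in hypoxic cells. After thinning, 5.98% of control and 6.61% of iIRE tumor-like cells held a UMI of Casp8, and 3.83% and 3.45% held one of Ripk1. Clusters of 1 library are not replicates, and the spread between mice is not known.

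In macrophage-like cells 1 of 9 genes passed, where 29.0% of 9585 genes did, with a median log2 ratio of 0.00 over the 9 genes and 0.04 over all. This was Mlkl, at 9.75 CPM in the control and 7.72 CPM in iIRE from 63 and 40 UMIs, with a log2 ratio of −0.34 [−0.95 to 0.26] that included 0. Without phagocyte subcluster 1, described with the subclusters, Mlkl was at −0.20 and 0 of 9 genes passed. The other 8 genes were within 1.2-fold, and the log2 ratios were −0.13 [−0.24 to −0.02] for Nlrp3 and 0.07 [−0.04 to 0.17] for Pycard. In monocyte-like cells 3 of the 5 genes with enough UMIs passed, where 43.5% of 2976 genes did, with medians of 0.19 and 0.00. Pycard was higher in iIRE by a log2 ratio of 0.29 [−0.01 to 0.59], or 0.81 when cells were gated by markers, and Nlrp3 and Casp8 were lower by −0.38 [−0.73 to −0.03] and −0.35 [−0.90 to 0.20]. These lower values did not hold throughout, with Nlrp3 at 0.43 for gated cells and Casp8 at 0.06 for finer clusters. In neutrophil-like cells only Nlrp3 had enough UMIs, 182 in the control and 234 in iIRE. Its log2 ratio was 0.34 [0.05 to 0.62], with a range of 0.32 to 1.12 over other settings, the highest when cells were gated by markers, and it passed where 55.6% of 1141 genes passed in this class. With 70 to 145 cells per library, a ratio of this size was common among the genes of both these classes.

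**Figure D2:**
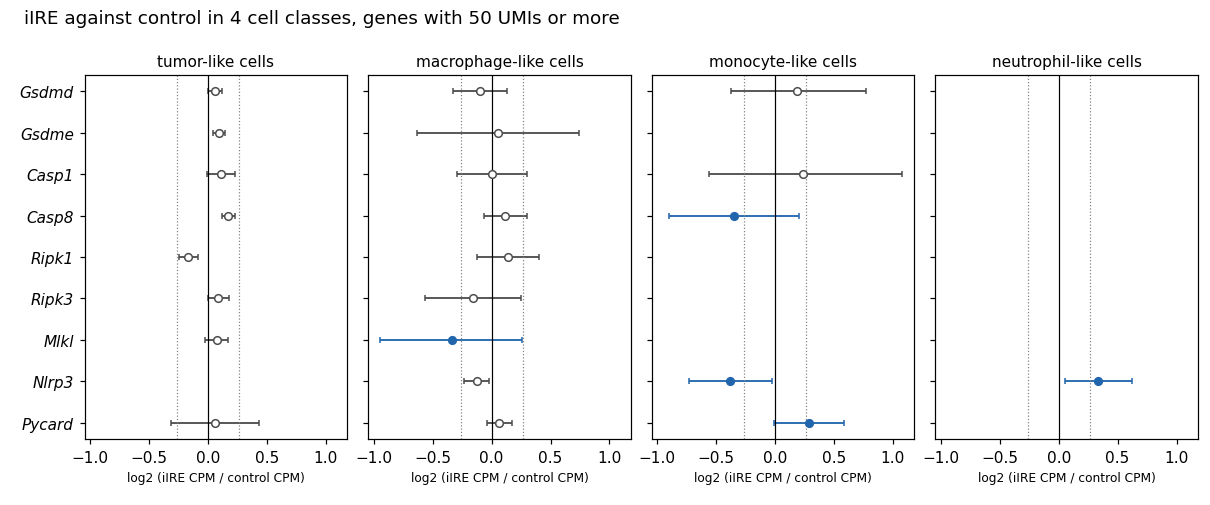
Log2 ratio of iIRE to control CPM (horizontal) for each gene (vertical) with at least 50 UMIs, in tumor-like, macrophage-like, monocyte-like and neutrophil-like cells. Bars are exact 95% intervals for counting error, dotted lines are 1.2-fold and filled blue points are past it. No gene is past it in tumor-like cells, and Nlrp3 lies at −0.38 in monocyte-like and 0.34 in neutrophil-like cells.

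The tumor-like clusters were compared with each other within a library. The clusters were named from state markers as dividing, hypoxic, mesenchymal (clusters 4 and 13) and epithelial (clusters 7 and 18), while cluster 1, led by Ecrg4, Id3, Fmod and Penk, and cluster 11, led by Hmga1, Ppp1r14b and S100a4, were left unnamed. Epithelial cluster 18, with 99 control and 115 iIRE cells led by Lgals4, Lgals2, Krt7 and Dmbt1, was set apart by Gsdmd, Casp8, Ripk3, Gsdme and Casp1. Its Gsdmd was at 79.5 CPM in the control and 117 CPM in iIRE, 2.39 times [2.02 to 2.82] and 3.45 times [2.99 to 3.96] the other tumor-like cells. Its Casp8 was at 69.4 and 83.5 CPM, 2.10 times [1.75 to 2.49] and 2.24 times [1.90 to 2.63] the others, and its Ripk3 at 22.3 and 33.8 CPM, 1.53 times [1.10 to 2.08] and 2.22 times [1.70 to 2.86].

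In the opposite direction, Gsdme in cluster 18 was at 20.1 and 13.6 CPM, 0.474 times [0.335 to 0.651] and 0.30 times [0.194 to 0.443] the other tumor-like cells. Its Casp1 was the lowest of the tumor-like clusters in both libraries, at 2.12 and 3.27 CPM from 4 and 6 UMIs. These were 0.257 times [0.0698 to 0.659] and 0.367 times [0.1345 to 0.802] the others. The second mesenchymal cluster, 13, had the highest Gsdme, at 67.2 and 63.5 CPM, 1.61 times [1.39 to 1.86] and 1.42 times [1.21 to 1.65] the others. So the 2 gasdermins that tumor-like cells expressed were highest in different clusters in both libraries, Gsdmd in epithelial cluster 18 and Gsdme in mesenchymal cluster 13. Gsdmd was not low in cluster 13, at 41.9 and 41.7 CPM, 1.24 times [1.03 to 1.49] and 1.19 times [0.978 to 1.43] the others. The larger mesenchymal cluster 4 did not share the high Gsdme, with 37.3 and 40.3 CPM. This was below the other tumor-like cells in both libraries, at 0.863 times [0.804 to 0.925] and 0.876 times [0.814 to 0.941]. The larger epithelial cluster 7 had 34.8 and 37.7 CPM of Gsdme and 36.0 and 40.6 CPM of Gsdmd.

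Dividing tumor-like cells had more of the apical caspase and of the necroptosis kinase. Their Casp8 was at 43.1 and 47.2 CPM, 1.43 times [1.34 to 1.51] and 1.39 times [1.31 to 1.47] the others, and their Ripk3 at 19.0 and 19.3 CPM, 1.46 times [1.33 to 1.60] and 1.38 times [1.26 to 1.51]. Their Gsdmd was lower, at 24.8 and 25.3 CPM, 0.668 times [0.622 to 0.717] and 0.646 times [0.601 to 0.693]. Hypoxic tumor-like cells were below the others in Gsdmd, Casp1, Casp8 and Ripk3 in both libraries. Their Casp8 was at 22.1 and 24.3 CPM, 0.626 times [0.564 to 0.692] and 0.617 times [0.547 to 0.695], and their Ripk3 at 11.4 and 9.18 CPM, 0.759 times [0.656 to 0.875] and 0.568 times [0.465 to 0.688]. Cluster 1 held Casp1 at 12.4 and 14.3 CPM, 1.79 times [1.58 to 2.02] and 2.00 times [1.77 to 2.25] the others, and Casp8 at 24.3 and 27.3 CPM, 0.669 times [0.619 to 0.721] and 0.664 times [0.615 to 0.716]. Mlkl lay between 9.54 and 13.99 CPM over the 8 clusters in the control and between 6.55 and 16.05 CPM in iIRE, highest in mesenchymal cluster 4 and lowest in epithelial cluster 18 in both. Ripk1 was lowest in cluster 11, at 9.13 and 7.22 CPM from 14 and 12 UMIs, 0.46 times [0.251 to 0.774] and 0.408 times [0.21 to 0.714] the others. The clusters were made without these 9 genes, but other genes of the same cells made them, so these ratios are descriptions.

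**Figure D3:**
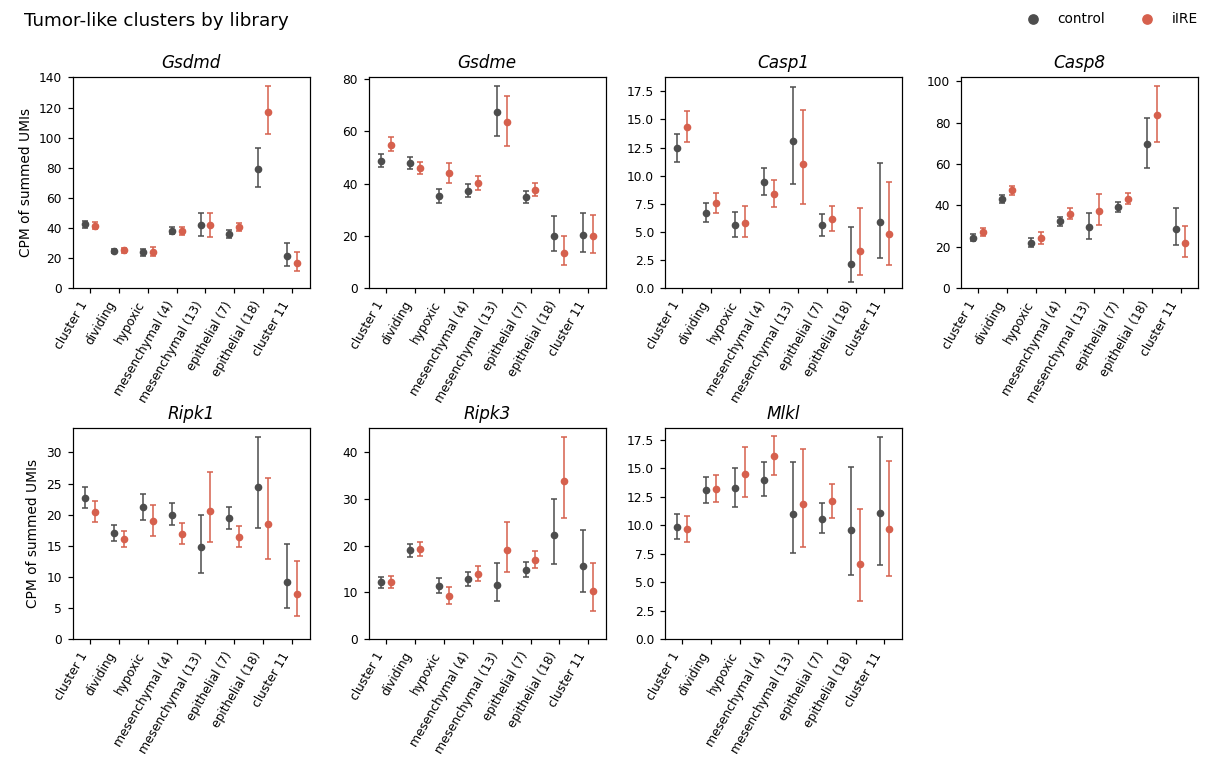
CPM of 7 genes (vertical axes) in the 8 tumor-like clusters (horizontal), in the control (gray) and iIRE (red) library, with exact 95% counting intervals. Gsdmd was highest in epithelial cluster 18, at 79.5 and 117 CPM, where Gsdme was at 20.1 and 13.6 CPM.

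Phagocytes were divided into 10 subclusters, of which subcluster 4, led by Ly6c2, Plac8 and Hp, is the monocyte-like class. Nlrp3 was highest in subcluster 1, led by Areg and genes of MHC class II, at 461 CPM in the control and 467 CPM in iIRE, 2.18 times [1.96 to 2.42] and 2.46 times [2.17 to 2.78] the other macrophage-like cells. Its leading genes H2-Eb1, H2-Aa, Mgl2, H2-Ab1 and Cd74 also led a dendritic-like cluster. In it 0 macrophage markers were 2-fold above the other phagocytes, so its class is the one given to the phagocyte clusters it came from. This was not particular to subcluster 1, as the count was also 0 in macrophage-like subclusters 0, 3, 5, 7 and 9. The macrophage markers summed to 12620 and 10822 CPM in subcluster 1, below the macrophage-like class as a whole. They were lower still in subcluster 6, at 9162 and 9860 CPM, and in subcluster 9, at 9823 and 9109 CPM. The dendritic markers summed to 125 and 94.3 CPM in subcluster 1, against 5032 and 3141 CPM in dendritic-like cells. Without subcluster 1, macrophage-like cells had 212 and 190 CPM of Nlrp3. Subcluster 1 also had Pycard at 289 and 288 CPM, 1.24 times [1.09 to 1.40] and 1.16 times [1.00 to 1.33] the others. Nlrp3 was lowest in subcluster 7, led by Cspg4, at 124 and 96.2 CPM, 0.454 times [0.364 to 0.56] and 0.378 times [0.288 to 0.487]. Pycard was highest in subcluster 9, led by Prg4 and Serpinb2, at 602 and 630 CPM (113 and 77 UMIs), 2.58 times [2.11 to 3.13] and 2.56 times [2.01 to 3.22] the others, although it held only 27 and 22 cells. Its Nlrp3 was at 272 and 352 CPM, 1.06 times [0.787 to 1.40] and 1.52 times [1.09 to 2.06] the others.

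Subcluster 5, led by the interferon-induced genes Ifit3, Ifit2 and Rsad2, had Gsdmd at 86.2 and 92.5 CPM, 1.59 times [1.15 to 2.17] and 1.86 times [1.29 to 2.63] the other macrophage-like cells. Its Ripk1 was at 53.2 and 70.6 CPM, 1.40 times [0.915 to 2.06] and 1.73 times [1.13 to 2.56], and its Mlkl at 18.3 and 17.04 CPM from 10 and 7 UMIs, with ratios of 2.05 [0.928 to 4.06] and 2.46 [0.92 to 5.66] that included 1. Subcluster 6, led by Mmp12, Gpnmb and Hmox1, was low in several of the genes. Gsdmd was at 30.8 and 24.6 CPM there, 0.513 times [0.317 to 0.789] and 0.447 times [0.191 to 0.894], Casp8 at 57.4 and 33.8 CPM, 0.685 times [0.486 to 0.944] and 0.371 times [0.184 to 0.67], and Pycard at 145.5 and 184.5 CPM, 0.569 times [0.462 to 0.695] and 0.710 times [0.539 to 0.92]. Its Nlrp3, at 270 and 246 CPM, was not below the others, with ratios of 1.06 [0.908 to 1.23] and 1.05 [0.828 to 1.32].

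**Figure D4:**
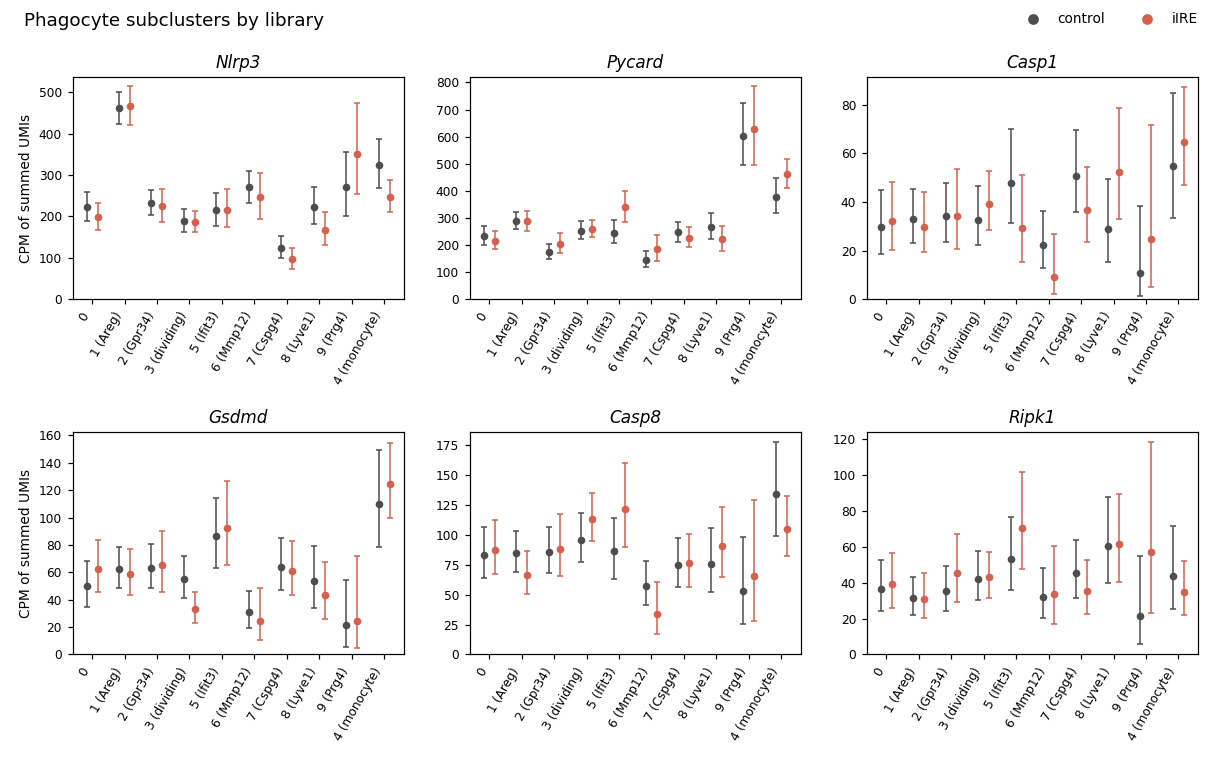
CPM of 6 genes (vertical axes) in the 10 phagocyte subclusters (horizontal, with a leading gene or name), in the control (gray) and iIRE (red) library, with exact 95% counting intervals. Nlrp3 was highest in subcluster 1, at 461 and 467 CPM, and Pycard in subcluster 9, at 602 and 630 CPM.

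Around the 9 genes, 72 pathway genes in 6 lists gave the setting. In tumor-like cells 10 of the 60 with enough UMIs were past 1.2-fold, 5 higher and 5 lower in iIRE, close to the 15.8% of all genes. None of the 13 listed genes that act on RIPK1 through ubiquitin or phosphorylation was among them. Past 1.2-fold were 4 of 12 inflammasome sensors and activators and 1 of 5 inflammatory caspases and substrates. So were 2 of 12 death receptors and adaptors and 3 of 18 apoptotic genes. Beside 15.8% of all genes, lists this short cannot be told apart, and nothing is drawn from their counts. The gene with the highest CPM of each list in tumor-like cells was Mcl1, a survival factor (192 and 207 CPM), Tnfrsf1a, the TNF receptor upstream of RIPK1 (103 and 115 CPM), Txnip, a binder of NLRP3 (90.8 and 91.7 CPM), Rbck1, a subunit of the linear ubiquitin ligase (53.2 and 57.0 CPM), and Ninj1 (52.8 and 51.2 CPM). Nek7, a partner of NLRP3, was at 51.6 and 52.9 CPM, and Aim2, a DNA sensor that also works through Pycard, was at 37.4 and 40.8 CPM in tumor-like cells.

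In macrophage-like cells 19 of 61 pathway genes were past 1.2-fold, 12 higher and 7 lower in iIRE, close to the 29.0% of all genes. Of the interleukin genes in the lists, Il1b was at 1480 CPM in the control and 1200 CPM in iIRE, with a log2 ratio of −0.30 [−0.35 to −0.26]. Il1a was at 329 and 236 CPM, with −0.48 [−0.59 to −0.38], while Il18, named after its values were seen, was at 29.1 and 37.5 CPM, with 0.36 [0.07 to 0.66]. Ninj1, which ruptures the membrane of dying cells, was at 477 and 476 CPM. Of the death receptor list, Tnf was at 202 and 196 CPM, and of the list of genes that act on RIPK1, Tnfaip3 was at 502 and 404 CPM with −0.31 [−0.39 to −0.23]. In monocyte-like cells 16 of 25 were past it, 5 higher and 11 lower, beside 43.5% of all genes, with Il1b at 4851 and 3672 CPM. In neutrophil-like cells 13 of 16 were past it, 10 higher and 3 lower, beside 55.6% of all genes. Il1b was at 12827 and 16025 CPM there, with a log2 ratio of 0.32 [0.25 to 0.39], and Tnf at 412 and 884 CPM, with 1.10 [0.73 to 1.49], while Ninj1 was at 1255 and 842 CPM, with −0.58 [−0.86 to −0.30]. The median log2 ratio over the pathway genes was 0.45 in neutrophil-like cells, against 0.02 over all 1141 genes, and −0.09 in monocyte-like cells, against 0.00 over all 2976.

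In the mouse annotation (GENCODE vM21, mm10), Gsdmd on chromosome 15, Casp1 on chromosome 9, Ripk3 on chromosome 14 and Nlrp3 on chromosome 11 overlap no other gene. Gsdme on chromosome 6 overlaps Mpp6, Mlkl on chromosome 8 Gm45712 and Pycard on chromosome 7 Gm45205, each on the other strand. Casp8 on chromosome 1 shares its strand with Gm37760, and Ripk1 on chromosome 13 shares it with Gm17084 and overlaps Serpinb6a and Gm17083 on the other. How the counting divided reads between genes on the same strand is not given in the sources used here, so Casp8 and Ripk1 UMIs carry that uncertainty.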

How the data were processed

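The deposited matrix holds UMI counts per gene and barcode, which the authors made with Cell Ranger and STAR on the mm10 genome. They are raw whole numbers for both libraries, in which the barcode ending gives the library. The file header names Cell Ranger 7.0.1, and the methods name another version. The filters were those of the methods, at least 200 genes and 1000 UMIs, a log10 gene to log10 UMI ratio of at least 0.7 and at most 5% mitochondrial and 5% hemoglobin UMIs. DoubletFinder was not run, and the cells with the highest simulated doublet scores were removed instead (0.8% per 1000 cells), 2538 and 2836 cells. Cells were scaled to 10000 UMIs, and 30 principal components of 2000 variable genes, without the 9 genes and 72 pathway genes, were clustered with scanpy 1.11.5 and leidenalg 0.10.2 (20 neighbors, resolution 1.0) into 30 clusters. A class needed 3 markers at 2-fold or more in 20% of cells. Limits on Cdkn2a (under 200 CPM for host clusters) and Y-linked genes (under 1 CPM for tumor clusters) and a minimum of 20 cells were set after the clusters were seen. Intervals were computed with scipy 1.17.1, as Poisson for levels, Clopper-Pearson for shares and conditional binomial for ratios, and the ratio script was tested on simulated data. The 9 genes, the lists and the rules were chosen with earlier results of these data known. All 9 genes are given in every class, pathway genes from the 2 to 4 with the highest CPM of their list in a class, and for each gene the 3 others with the highest correlation, of which some are not reported here. With 1 library per group there is no test between groups. Alternatives changed doublet removal, the mitochondrial limit, resolution, scaling, a pseudocount, pooling, the UMI minimum and the class rule. Promoter windows are from RefSeq.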

Additional observations from a re-analysis of the deposited data

Results flagged for a closer look

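Nlrp3 was past 1.2-fold in opposite directions in 2 phagocyte classes. Its log2 ratio of iIRE to control was −0.38 in monocyte-like cells (118 and 165 UMIs) and 0.34 in neutrophil-like cells (182 and 234 UMIs). The difference between the classes was not tested, since each group is 1 library, and gating cells by markers gave 0.43 in monocyte-like and 1.12 in neutrophil-like cells, the same direction in both.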

How the results depend on the processing

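Of 200 log2 ratios of single genes under other settings, 13 had the other sign, 3 of them for ratios past 1.2-fold and 10 for smaller ones. The former were Mlkl in macrophage-like cells (0.18) and Nlrp3 in monocyte-like cells (0.43) when cells were gated 1 by 1 by markers, and Casp8 in monocyte-like cells at a resolution of 2.0 (0.06). The count past 1.2-fold in tumor-like cells went from 0 to 1 with a minimum of 10 UMIs (Nlrp3, 16 and 20 UMIs), and to 2 (Nlrp3 and Pycard) with gated cells and with the mixed clusters added, an alternative chosen after seeing the data. In macrophage-like cells the count went from 1 to 2 without doublet removal and to 0 with 10 CPM added to both levels. It was also 0 with phagocyte subcluster 1 left out, an alternative chosen after seeing the data. In monocyte-like cells it went from 3 to 6 with a minimum of 10 UMIs and to 5 with gated cells, and in neutrophil-like cells from 1 to 3 with a minimum of 10 UMIs. Without doublet removal no cluster was named neutrophil-like, so that class has no value there. Scaling by the median ratio moved log2 ratios by 0.003 to 0.045. In tumor-like cells Casp8 stayed between 0.12 and 0.17 and Ripk1 between −0.17 and −0.06 over 9 settings. The cause of these changes was not tested. No paired analysis was possible because each group is 1 library, and no replicate could be left out. Monocyte-like cells numbered 70 and 123 here, and 133 to 170 and 180 to 236 without doublet removal, with the 10% mitochondrial limit, at resolution 2.0 and with gated cells. Depth limits neutrophil-like cells to 1 gene of the 9.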
